A study of Mus musculus with 3 samples.

Results

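The 5 genes described here are the adult haemoglobin genes Hba-a1, Hba-a2, Hbb-bs and Hbb-bt and the erythroid haem gene Alas2, out of 50262 gene rows in the count table. They were chosen because earlier results of these data had shown higher haemoglobin in the CD45- than in the CD45+ sort, so their difference between the sorts is given as a description, with no test. Haemoglobin below means the sum of the 4 globin genes, and levels are given as CPM, the unique molecular identifiers (UMIs, each a tag for 1 captured mRNA) of a gene per 1000000 UMIs of the same cells. All 5 genes had a row in the table and UMIs in the CD45- sort.

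Viable cells of glioma-bearing mouse brains were separated by surface CD45, which marks leukocytes, and captured on the inDrop platform, which encapsulates cells in droplets and tags mRNA near its 3' end. The table held 24 libraries, 4 for each of the CD45- and CD45+ sorts of 1 early, 1 medium and 1 late tumor sample (late is named large in the labels). The 4 libraries of a group were technical repeats spread over 3 sequencing runs, so no test between stages was possible, and cells of 2 animals were pooled for the early sample per the study's methods. All groups shared 1 model, in which adult mice of mixed background carried a conditional wild-type human EGFR transgene, Cdkn2a-/- and a conditional luciferase reporter, among other alleles, and received a lentivirus carrying iCre in the brain. Only cells reached by the virus recombine in this model, and the sorted cells therefore mixed tumor and host cells. The study's methods state that mice were perfused with saline, that myelin was removed and that red blood cells were lysed before sorting. Libraries held between 17 and 1987 barcodes and between 62320 and 4305948 UMIs. Ptprc, which encodes CD45, had a UMI in 2.75%, 3.12% and 1.46% of filtered cells of the early, medium and late CD45- sorts and in 24.6%, 23.7% and 26.4% of the CD45+ sorts.

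Haemoglobin carries oxygen as a tetramer of alpha and beta chains, each holding haem. Developing red cells make both chains in very large amounts, and in mammals the maturing cell loses its nucleus and mitochondria and goes on translating stored mRNA for a time. Alas2 is the erythroid enzyme for the first and rate-limiting step of haem synthesis, and Alas1 is its counterpart in other tissues.

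The gene models lie on 3 chromosomes (GRCm38, GENCODE M21). Hba-a1 (chromosome 11, 32283511 to 32284465, plus strand) and Hba-a2 (chromosome 11, 32296489 to 32297298, plus strand) encode the adult alpha chain and start 12978 bp apart. Hbb-bs (chromosome 7, 103826534 to 103828096, minus strand) and Hbb-bt (chromosome 7, 103812524 to 103813996, minus strand) encode the adult beta chain and start 14100 bp apart. Alas2 lies on chromosome X, from 150547375 to 150570638 on the plus strand. The 130 bases before each RefSeq start (GRCm38.p6) are shown because the 5 genes rise in the same barcodes. Capitals mark 4 short motifs on either strand. They are the GATA motif (letters GATAA, read as TTATC on the opposite strand), the CACCC box (or GGGTG), the CCAAT box (or ATTGG) and the TATA box (letters TATAA, or TTATA).
Hba-a1, chr11:32283542-32283671, plus strand: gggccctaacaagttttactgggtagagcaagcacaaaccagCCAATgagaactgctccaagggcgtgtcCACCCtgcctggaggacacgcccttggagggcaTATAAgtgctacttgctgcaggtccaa
Hba-a2, chr11:32296362-32296491, plus strand: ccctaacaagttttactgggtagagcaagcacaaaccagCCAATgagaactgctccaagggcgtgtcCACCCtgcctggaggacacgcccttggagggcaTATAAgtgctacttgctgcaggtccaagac
Hbb-bs, chr7:103827929-103828058, minus strand: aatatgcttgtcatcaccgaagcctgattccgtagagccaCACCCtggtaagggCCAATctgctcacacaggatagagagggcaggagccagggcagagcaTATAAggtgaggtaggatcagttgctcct
Hbb-bt, chr7:103813924-103814053, minus strand: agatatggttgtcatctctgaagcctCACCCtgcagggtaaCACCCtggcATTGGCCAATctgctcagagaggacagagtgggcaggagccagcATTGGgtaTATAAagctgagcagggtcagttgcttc
Alas2, chrX:150547287-150547416, plus strand: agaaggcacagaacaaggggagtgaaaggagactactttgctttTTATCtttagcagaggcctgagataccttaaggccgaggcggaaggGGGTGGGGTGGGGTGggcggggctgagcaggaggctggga

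The 4 globin windows held a CCAAT box, a CACCC box and a TATA box, the last between 27 and 30 bases before the start. Alas2 held a GATA motif 86 bases before the start and a CACCC box but neither of the others. Among 32851 windows of the same length, 33.7% held the CACCC box, 22.4% the CCAAT box, 12.7% the TATA box and 11.4% the GATA motif. These matches are a description of letters and not of binding.

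The alpha genes share sequence with each other, as do the beta genes. Of the 31-base words in their transcripts, Hba-a1 shared 477 with Hba-a2 (71.3% of its own words and 91.0% of those of Hba-a2), Hbb-bs shared 400 with Hbb-bt (58.7% and 59.4%), and Hba-a1 shared 0 with Hbb-bs. The sources used here do not give how UMIs that map to both genes of a pair were assigned, so the split within a pair is uncertain and the sum may count a molecule more than once.

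Haemoglobin was highest in the early CD45- libraries and differed strongly between stages within that sort. In all deposited barcodes the early CD45- level was 72591, 55604, 51258 and 80862 CPM in the 4 libraries (libraries 1 to 4, mean 65079 ± 13980 SD, n = 4). The medium CD45- libraries held 209, 1.76, 6621 and 6072, and the late CD45- libraries held 0, 43.6, 0.734 and 2.55. Each early library thus lay above every medium library, and the medium libraries overlapped the late ones, with libraries 3 and 4 far above libraries 1 and 2. In the CD45+ sort the early libraries held 4.84, 21.6, 5.78 and 63.0 CPM, the late libraries held 0, 7.57, 0.409 and 0, and all 4 medium libraries held 0 in 4129 barcodes. The early CD45+ libraries therefore overlapped the late CD45- ones. Because cells of each stage came from 1 tumor sample, stage, sample and libraries cannot be told apart.

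Each gene followed this order in the early sample. Hba-a1 stood at 21133, 15485, 14342 and 22849 CPM in the 4 early CD45- libraries (mean 18452 ± 4172 SD) and at 0 to 14.3 in the early CD45+ libraries. Hba-a2 stood at 15722, 13036, 13067 and 19640 (mean 15366 ± 3115 SD) against 0 to 11.8. The 2 alpha genes thus had no overlap between the sorts. Hbb-bs stood at 22716, 17380, 15201 and 24651 (mean 19987 ± 4431 SD) against 0 to 27.0 in the CD45+ libraries. Hbb-bt stood at 13020, 9703, 8648 and 13722 (mean 11273 ± 2477 SD) against 0.680 to 9.84. The beta genes did not overlap between the sorts either, and library 4 was the highest and library 3 the lowest of the 4 for both.

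Alas2 UMIs were found in few libraries. The gene had 243, 441, 325 and 303 UMIs in the early CD45- libraries, or 129, 109, 113 and 160 CPM (mean 127 ± 23.1 SD). It had 0, 0, 27 and 32 UMIs in the medium CD45- libraries, 0, 1, 0 and 0 in the late ones and 0 in each of the 12 CD45+ libraries. The medium libraries with Alas2 UMIs were the 2 with the highest haemoglobin.

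**Figure D1:**
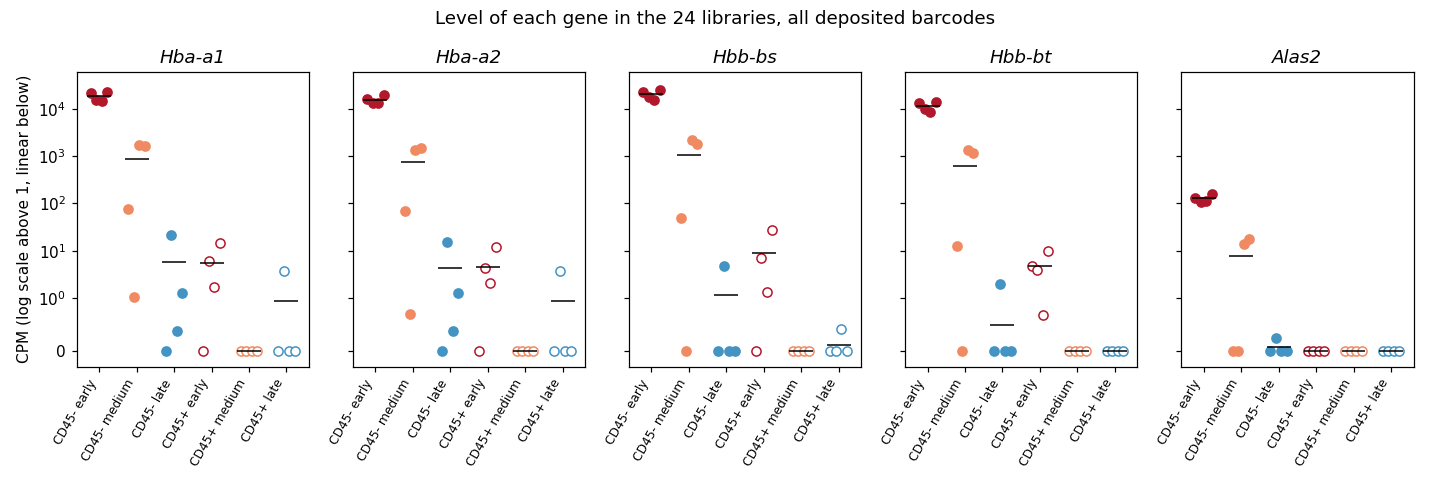
CPM of each gene (y axis, logarithmic above 1 and linear below) in all deposited barcodes of the 24 libraries, grouped by sort and stage on the x axis, with 1 point per library, filled for CD45- and open for CD45+, and a line at the mean of 4 libraries. The early CD45- libraries sit together at the top of each panel, the medium CD45- libraries are split, and the medium CD45+ libraries lie at 0.

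After removal of barcodes under 500 UMIs, under 500 genes or over 20% mitochondrial UMIs, and of doublets, the early CD45- level was lower. The 4 early CD45- libraries then held 2207, 6630, 5641 and 7160 CPM, and all filtered early CD45- cells together held 5647, against 26.9 in the early CD45+ cells. The ratio of these sums was 210 (95% interval 187 to 236, counting error only, here and for all intervals). Library 4 held much of the early CD45+ haemoglobin, and without it that level was 13.9 CPM and the ratio 406. For the separate genes the ratio was 226 for Hba-a1, 245.7 for Hba-a2, 171 for Hbb-bs and 237 for Hbb-bt, and Alas2 was at least 40.03-fold higher, against a floor of 3 counts. Over all 18433 genes tested in the sort contrast, 25.7% were higher in CD45- and 20.4% were higher in CD45+ (edgeR quasi-likelihood test over 3 tumor samples, adjusted p under 0.05), and the fitted log2 differences of the globin genes were 7.47 for Hba-a1, 7.53 for Hba-a2, 7.05 for Hbb-bs and 7.59 for Hbb-bt. Alas2 did not pass the filter on low counts in that fit. Since this contrast chose the genes, no weight rests on those values.

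The haemoglobin of the early CD45- sort was held by few barcodes. Of 3944 deposited barcodes, 2214 had no haemoglobin UMI, 770 had 1, 619 had 2 or 3 and 177 had 4 to 16. None had 17 to 245, 7 had 246 to 999 and 157 had 1000 to 8387. The distribution thus had a gap between 16 and 246 UMIs. A barcode with at least 10% of its UMIs in the 4 globin genes was called haemoglobin-rich, and 163 early CD45- barcodes (4.13%) met this, with 39, 54, 36 and 34 in the 4 libraries. They held 99.5% of the haemoglobin UMIs of that sort. The medium CD45- sort had 6 such barcodes (1, 0, 3 and 2 in its libraries), the late CD45- sort had 0 of 2603 and the CD45+ sort had none at any stage. At a limit of 1% the early count was 165 and at 50% it was 154, and the nearest early barcodes to the limit stood at 8.75% and 11.2%.

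The haemoglobin-rich barcodes held much RNA of few genes. They had a median of 4536 UMIs but 146 detected genes (43 to 3923), against 1979 UMIs and 866 genes in the other early CD45- barcodes. The median share of haemoglobin was 93.6% (11.2% to 98.0%), which left a median of 288 other UMIs. The median mitochondrial share of all UMIs was 0.318%, against 8.86% in the others, and haemoglobin takes most of that total. With haemoglobin UMIs left out of the summed total, mt-Co1, mt-Atp6 and mt-Cytb stood at 0.626-fold, 0.591-fold and 0.507-fold the level of the others. Those sums include 13 barcodes that passed the filters, with a median mitochondrial share of 4.90%, against 0.258% in the 150 that failed. All 150 that failed the filters did so for fewer than 500 genes, and 13 of 163 passed. In all, 771 early CD45- barcodes lay under the gene minimum, of which 150 (19.5%) were haemoglobin-rich, and 43.1% of the UMIs of the 771 were haemoglobin. Some of the 771 also failed the mitochondrial limit. Of the 3781 barcodes that were not haemoglobin-rich, 621 were under 500 genes, 913 were over 20% mitochondrial UMIs and 2747 passed. None of the haemoglobin-rich barcodes was over the mitochondrial limit.

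Within these barcodes all 4 globin genes were present in every one of the 163. The median was 1149 UMIs of Hba-a1 (62 to 2417), 925 of Hba-a2 (56 to 2166), 1270 of Hbb-bs (77 to 2465) and 701 of Hbb-bt (23 to 1730). Alas2 had a median of 7 UMIs (0 to 28) and was present in 142 (87.1%), against 4 of the 3781 other early CD45- barcodes (0.106%). Alas2 itself was not used to call a barcode haemoglobin-rich, although it had been chosen together with the globins.

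**Figure D2:**
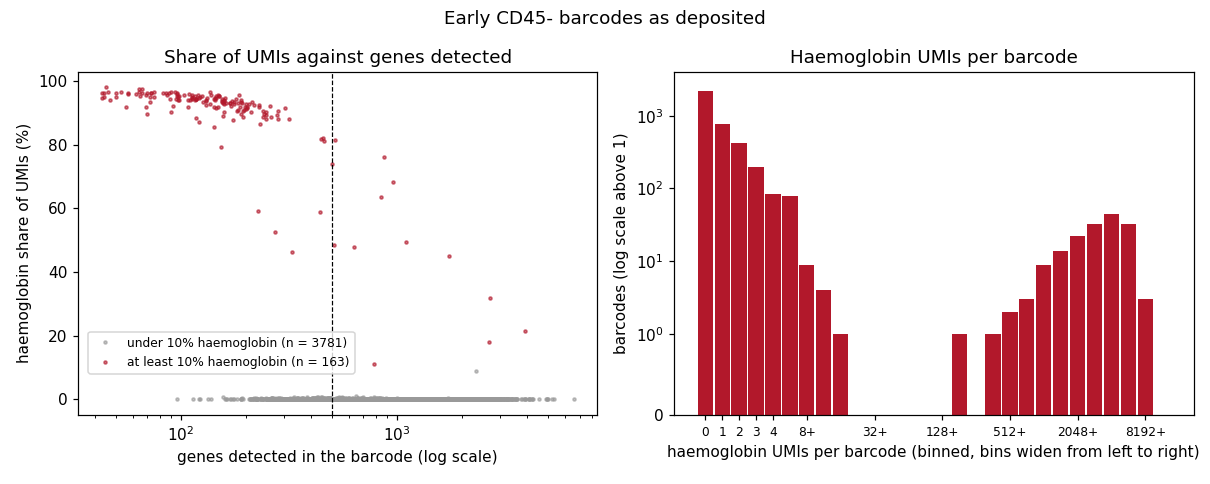
Left, percent of UMIs in the 4 globin genes (y axis) against genes detected (x axis, logarithmic) for each early CD45- barcode as deposited, with the 500-gene minimum as a dashed line. Right, number of barcodes (y axis, logarithmic above 1) by haemoglobin UMIs per barcode in widening bins (x axis). The 163 haemoglobin-rich barcodes lie mostly left of the minimum, and no barcode had 17 to 245 haemoglobin UMIs.

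The other genes of these barcodes were compared with the rest of the early CD45- barcodes as a description, since the barcodes were chosen by their own counts. The 10 genes with the largest ratio of levels among those with at least 20 UMIs included Alas2 (3426-fold), Hbb-bt (3348), Hba-a2 (2991), Apol11b (2385, from 182 UMIs against 1), Hba-a1 (2348), Hbb-bs (1846), Hba-ps3 (at least 896, against 0 UMIs), Slc4a1 (642) and Csmd2 (290). Slc4a1 is the anion exchanger of the red cell membrane (49 UMIs against 1). Hba-ps3 is an alpha-like pseudogene, whose reads may be those of its near-identical neighbours. Csmd2, a large gene on chromosome 4 not known as an erythroid gene, was the fifth most abundant gene of these barcodes, with 4407 UMIs in 99.4% of them (5797 CPM) against 19.97 CPM in the others.

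Of the 483 UMIs of 8 haem synthesis genes other than Alas2, most came from the last step. Fech, which inserts iron into the ring, had 416 UMIs in 68.1% of haemoglobin-rich barcodes and was 6.77-fold higher than in the others. Alas1 had 1 UMI and Alad, the second enzyme, had 2, or 0.547-fold and 0.640-fold the level of the others without haemoglobin. Of the 8 synthesis genes other than Alas2, 2 had a higher CPM (Fech among them), and 6 had a higher level when haemoglobin UMIs were left out of the total. Over all 26695 genes detected in either set those shares were 2.31% and 17.6%, and since haemoglobin takes most of the UMIs of these barcodes, both are given for each list below.

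Among iron supply genes, Slc25a37 (mitoferrin 1, which brings iron into the mitochondria of erythroid cells) was 73.4-fold higher, at 722 CPM, and Slc25a39 was 3.32-fold higher. Of 9 iron genes, 3 were higher in CPM and 6 without haemoglobin. The transferrin receptor Tfrc, high in young erythroid cells, had 6 UMIs, 0.175-fold the level of the others in CPM and 1.33-fold without haemoglobin. Hmox1, which breaks haem down, had 0 UMIs in the haemoglobin-rich barcodes and 493 (49.5 CPM) in the others. With few UMIs outside haemoglobin in the former, that 0 carries little weight. Of 11 breakdown and transport genes, 1 was higher in CPM, or 2 without haemoglobin, the latter a share near that over all genes.

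Red cell membrane and late cytosol genes were mostly higher in the haemoglobin-rich barcodes. Of 14 membrane and skeleton genes, 11 were higher in CPM and 13 without haemoglobin. Epb41, a protein of the membrane skeleton, was 12.9-fold higher. Of 14 genes of the late cytosol and maturation, 10 were higher in CPM and 12 without haemoglobin. They included Ube2l6 (59.1-fold, an enzyme of protein conjugation), Tent5c (24.04-fold), Mkrn1 (16.1-fold), Bpgm (4.77-fold, which makes the regulator of oxygen affinity) and Bnip3l (2.45-fold, needed for removal of mitochondria). Car2, carbonic anhydrase 2, stood at 313 CPM against 2544, the latter in a sort rich in oligodendrocytes, which express it. With haemoglobin left out of the total the levels were near each other, at 2378 and 2545.

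Regulators of erythroid genes had few UMIs, 43 in all over 12 genes. Their summed level was 56.6 CPM against 251 in the others, and with haemoglobin left out of the total the order turned, at 430 against 251. The master regulator Klf1 and Tal1 had 0 UMIs in the haemoglobin-rich barcodes. Gata1 had 1 UMI against 0, the erythropoietin receptor Epor had 1 (4.37-fold higher in CPM) and Nfe2 had 3 (13.1-fold higher). Lmo2 had 19 UMIs, 0.830-fold the level of the others in CPM and 6.30-fold without haemoglobin. Of the 12 regulators, 3 were higher in CPM and 6 without haemoglobin. Of 11 other globins, 5 were higher by either measure, led by Hbb-bh1 (17 UMIs), Hbq1a (13) and Hbq1b (11). Of 18 erythroid markers other than the genes described here, at least 1 was detected in 44 of the 163 barcodes, at least 2 in 12 and at least 3 in 7, against 617, 55 and 4 of the 3781 others. No cluster was named erythroid-like, but the globin and erythroid genes were left out of the clustering. The 150 barcodes that failed the filters were not clustered. The absence of such a cluster thus does not bear on whether erythroid cells were present. Ptprc had 0 UMIs in all 163, and all 8 megakaryocyte and platelet markers were at 0. The other early CD45- barcodes held 160 and 206 such UMIs in 9963283. The haemoglobin-rich ones held a median of only 288 UMIs outside haemoglobin, so these zeros do not show absence.

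Apex2 had 862 UMIs in 84.0% of the haemoglobin-rich barcodes, 205-fold above the others. Its gene model (chromosome X, 150519519 to 150589868, minus strand) contains that of Alas2, so Apex2 and Alas2 overlap on opposite strands. How such reads were assigned is not given in the sources used here, and the 2 genes cannot be told apart where they overlap.

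The 13 haemoglobin-rich barcodes that passed the filters differ from the 150 by the gene minimum itself, so their values are a description. They clustered with 4 named classes (6 oligodendrocyte-like, 2 endothelial-like, 2 microglia-like and 1 neuron-like, with 2 unnamed), and had a median of 870 genes and 48.6% haemoglobin. These classes were assigned with the globin and erythroid genes left out of the clustering. Oligodendrocyte markers summed to 31384 CPM in them (12 of 12 markers detected, in 12 of 13 barcodes) and to 561 in the 150 that failed (10 of 12 detected, in 115 of 150 barcodes), against 34447 in the other early CD45- barcodes. With haemoglobin left out of the total these levels were 58134, 7538 and 34459. Of 18 erythroid markers, 16 were detected in the 13 barcodes and 9 in the 150, and Klf1 and Trim58 were at 0 in both. In the former they lay mainly in 2 barcodes, with 14 and 11 markers, while 8 of the 13 had none and the other 3 had 1 to 3. Scrublet called none of the 13 a doublet. The part of droplets that held a brain cell together with a red cell was not tested.

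The other level of haemoglobin was low and spread over many cells. In filtered early CD45- cells under 1% haemoglobin, 41.7% had a haemoglobin UMI, the mean was 0.813 UMIs per cell and the highest cell had 15. The level was 275 CPM (95% interval 264 to 287) in 2710 cells, 10.2-fold (9.05 to 11.6) above the early CD45+ sort, or 19.8-fold without library 4 of that sort. Alas2 had 1 UMI in these cells. In the late sample the same ratio was 2.54 (0.719 to 13.7), from 15 UMIs against 3. Those 15 lay in 7 cells, while the interval takes UMIs as independent, so it is no test of a difference. In the medium sample the CD45- level was at least 35.6-fold higher, against 0 UMIs. Single libraries moved both values. Without library 4 of the medium CD45- sort the bound was 17.4-fold, and without library 2 of the medium CD45+ sort it was 21.5-fold. The late ratio was 7.26 (1.12 to 305) without library 2 and 1.29 (0.364 to 6.94) without library 4 of the late CD45+ sort, which held 3 haemoglobin UMIs in all.

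This low level was present in each early CD45- library. The mean was 0.555, 1.14, 0.732 and 0.725 UMIs per cell. The shares of cells at 0 were 64.2%, 49.6%, 60.5% and 61.7%, each higher than the 57.4%, 31.9%, 48.1% and 48.5% that a Poisson distribution with the same mean gives. Haemoglobin UMIs were thus spread less evenly than a Poisson distribution, with variance to mean ratios of 1.63, 2.45, 1.86 and 1.99. In the bins of rising depth given below the ratios were 1.30, 1.90, 1.85 and 2.22. A molecule counted in both genes of a pair can also raise this ratio, and that part was not tested. Depth differs between cells, and so does the mean, which was 0.461 in the 76 cells under 1000 UMIs, 0.552 between 1000 and 2000, 0.739 between 2000 and 4000 and 1.54 in the 525 cells of 4000 or more. Relative to depth the order was the opposite, with 497, 373, 265 and 235 CPM in the same bins.

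Across the 24 libraries the low level was set beside the haemoglobin held by barcodes of at least 1% haemoglobin, divided by all barcodes of the library. In the early CD45- libraries the latter was 167, 174, 131 and 213 UMIs per barcode. In the medium CD45- libraries it was 0.6004, 0, 20.01 and 17.6, where the low level was 0.00300, 0.00612, 0.0618 and 0.111 UMIs per cell. The 2 medium libraries with more haemoglobin-rich RNA were thus those with the higher low level, while among the early libraries library 4 had the most high haemoglobin and library 2 the highest low level. In the late CD45- libraries the high part was 0, 0.197, 0 and 0, and the low level was 0, 0.00978, 0.00352 and 0.0122. All CD45+ libraries had 0 in the high part, while the early CD45+ libraries had a low level of 0.0147, 0.0509, 0.00949 and 0.107 UMIs per cell. Free RNA in droplets gives UMIs to cells that do not make it, and its part in the low level was not tested. Of 18335 barcode sequences, 2117 (11.5%) occurred in more than 1 library, and 9 other cells of the same run shared a barcode with a haemoglobin-rich one and held 3 haemoglobin UMIs in all.

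**Figure D3:**
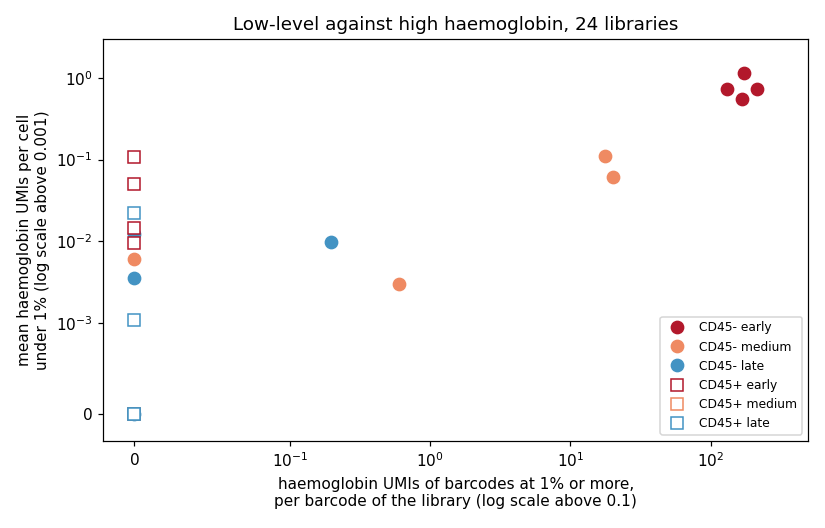
Mean haemoglobin UMIs per filtered cell under 1% haemoglobin (y axis, logarithmic above 0.001) against haemoglobin UMIs of deposited barcodes at 1% or more, per barcode of the library (x axis, logarithmic above 0.1), with 1 point per library and 24 libraries, of which several overlap at 0. The 4 early CD45- libraries lie at the upper right, medium libraries 3 and 4 lie between 17 and 21 on the x axis, and the CD45+ libraries lie at 0 on the x axis.

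The share of cells with a haemoglobin UMI differed by sort and by stage. Of all filtered CD45- cells, 42.0% (40.2 to 43.9) of the early, 4.05% (3.14 to 5.14) of the medium and 0.397% (0.182 to 0.752) of the late sample had one. In the CD45+ sort of the same samples the share was 3.02% (2.57 to 3.53), 0 of 3983 cells, which at 3 counts allows a share of cells with a UMI of up to 0.0753%, and 0.0947%. Without its library 4 the early CD45+ share was 1.92% and the medium CD45- share 1.84%. Without its library 2 the late CD45- share was 0.258% and the late CD45+ share 0.0495%, and without library 4 the latter was 0.194%. After thinning each cell to 1000 UMIs the early, medium and late CD45- shares were 22.9%, 1.23% and 0.231%, and the early CD45+ share was 1.95%.

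In the early CD45- sort 9 classes named from their markers had shares between 35.9% and 56.0%. Choroid plexus-like cells were highest (56.0%, 95% interval 50.02 to 61.9, 282 cells), and they were also the deepest, at a median of 4530 UMIs. Microglia-like cells stood at 44.6% (38.1 to 51.3), fibroblast-like at 42.4%, glioma or oligodendrocyte progenitor-like at 41.4%, neuron-like at 40.8% and oligodendrocyte-like at 40.3% (37.7 to 42.9, 1371 cells). Endothelial-like cells stood at 39.2%, astrocyte-like at 36.5% and ependymal-like at 35.9%. The interval of choroid plexus-like cells overlapped those of microglia-like and fibroblast-like (32.5 to 52.8) cells and lay above those of the other 6 classes. The intervals of the 8 other classes overlapped one another. All of them take cells of 1 tumor sample, pooled over libraries, as independent, so their overlap is no test between classes. After thinning, the order changed, with endothelial-like cells highest at 32.0% and choroid plexus-like cells at 19.1%, and the range was 17.8% to 32.0%. In cells under 1% haemoglobin the mean ran from 0.657 UMIs per cell in glioma or oligodendrocyte progenitor-like cells to 1.19 in choroid plexus-like cells, and the level from 210 CPM in neuron-like to 483 in endothelial-like cells, which had the lowest median depth (1355 UMIs). By library the means were 0.515, 1.09, 0.711 and 0.791 UMIs per cell in oligodendrocyte-like cells and 0.808, 1.54, 1.20 and 1.00 in choroid plexus-like cells, so library 2 was highest in both. Smaller classes differed more between libraries, from 0.269 to 1.38 in ependymal-like and from 0.133 to 1.32 in astrocyte-like cells. The order of classes above pools the libraries and depends on them.

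Microglia-like cells were present in both sorts of the early sample, at like depth. A haemoglobin UMI was found in 44.6% of the 231 CD45- cells (median 2023 UMIs) and in 3.06% (2.54 to 3.64) of the 3895 CD45+ cells (median 1943 UMIs), or in 27.2% and 2.01% after thinning. The same 6 clusters made up the class in both sorts, with cluster 1 the largest (37.2% and 38.3% of the class), and in each cluster the share was higher in CD45- (15.4% to 53.7%) than in CD45+ (1.84% to 3.81%). The other CD45+ classes of at least 50 cells stood between 1.53% (macrophage or monocyte-like) and 6% (oligodendrocyte-like, 3 of 50 cells). In the medium CD45- sort classes of at least 30 cells stood between 1.52% and 7.69%. Microglia-like cells of the early sample thus differed more between sorts than the 9 CD45- classes did among themselves. No test was made, as each sort of a stage had 1 tumor sample.

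**Figure D4:**
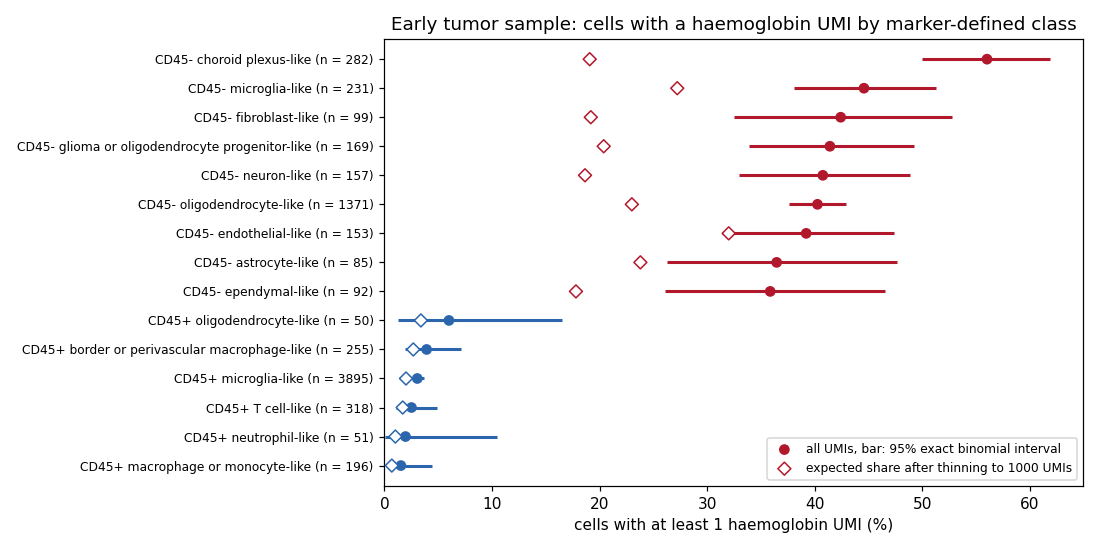
Percent of filtered cells of the early sample with at least 1 haemoglobin UMI (x axis) by sort and marker-defined class (y axis, with the number of cells), as filled points with 95% exact binomial intervals and, as open diamonds, the share expected after thinning to 1000 UMIs. All 9 CD45- classes lie at 35.9% or more, and all 6 CD45+ classes shown lie at 6% or less.

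The mix of globin genes differed between the low and the high level. inDrop counts tags near the 3' end of a molecule, so no division by length was made. In early CD45- barcodes with 1 to 16 haemoglobin UMIs, Hbb-bs made up 76.8% (74.6 to 78.8) of beta UMIs. In barcodes with 246 to 1999 UMIs it made up 69.7%, with 2000 to 3999 66.2%, with 4000 to 5999 63.9% and with 6000 to 8387 61.1% (60.8 to 61.4). The share of Hbb-bs was thus lower in each higher bin, and that of Hbb-bt higher. By library the low-level share was 81.0%, 77.7%, 73.1% and 76.1%, against 63.5%, 64.1%, 63.7% and 64.2% in barcodes at 1% or more. The low-level share was higher in 4 of 4 libraries, by a mean of 13.1 percentage points ± 3.36 (SD), where an exact paired permutation test (two-sided, 4 libraries of 1 tumor sample) cannot give a p below 0.125.

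The alpha genes showed a smaller difference of the same kind. Hba-a1 made up 61.5% of alpha UMIs in the lowest bin and 53.3% in the highest, and it was higher at the low level in 4 of 4 libraries by a mean of 7.29 percentage points ± 2.40 (SD). The share of alpha in all haemoglobin was 48.1% in the lowest bin and between 51.7% and 54.6% in the others, and the low level was higher in 1 of 4 libraries. In early CD45- barcodes under 1% with an alpha UMI, both alpha genes were present in 409 of 786 (52.0%), whereas both beta genes were present in 199 of 1040 with a beta UMI (19.1%). In the early CD45+ sort the counts were 59 of 74 (79.7%) and 28 of 107 (26.2%), while only 5 of 176 positive barcodes (2.84%) held both an alpha and a beta chain, against 261 of 1565 (16.7%) in CD45-. Most CD45+ barcodes with an alpha UMI thus held both near-identical alpha genes and no beta gene, and the part of shared assignment within a pair was not tested.

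**Figure D5:**
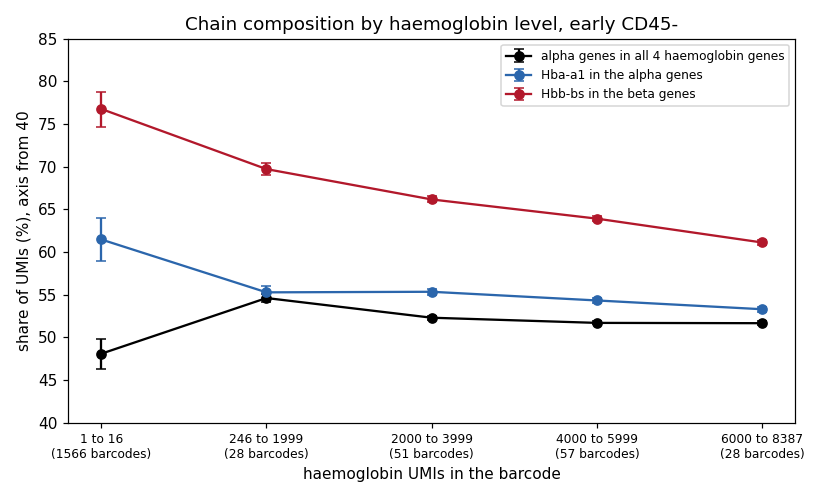
Share of UMIs (y axis, in percent and starting at 40) of alpha genes in all haemoglobin, of Hba-a1 in alpha and of Hbb-bs in beta, for early CD45- barcodes binned by haemoglobin UMIs (x axis), with 95% exact binomial intervals. Hbb-bs runs from 76.8% in the lowest bin to 61.1% in the highest.

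Beyond the 5 genes, 79 genes of 7 erythroid and haem lists had a row, and 51 passed the filter of the sort contrast. Of these, 13 were higher in CD45-, 15 were higher in CD45+ and 23 passed in neither direction, beside 25.7% and 20.4% of all genes, and their median log2 difference was 0.23 against 0.04 over all genes. All values below are from edgeR's quasi-likelihood test on 3 tumor samples, with Benjamini-Hochberg adjusted p.

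Of 8 haem synthesis genes tested, 2 were higher in CD45-, 1 was higher in CD45+ and 5 passed in neither direction, shares near or below those over all genes. Fech (log2 difference 1.45, SE 0.22, adjusted p = 0.00168) and Cpox (1.74, SE 0.31, adjusted p = 0.00347) were higher in CD45-, and Alas1 was higher in CD45+ (-1.28, SE 0.32, adjusted p = 0.0164), at 32.5 ± 10.9 against 16.7 ± 2.54 CPM (SD, n = 3). The call on Alas1 was lost without the medium (-0.91) or the late (-1.19) tumor sample. Alad stood at 0.52 (adjusted p = 0.077). Cytoglobin (Cygb), an oxygen-binding protein of fibroblasts, was the only other globin that passed the filter and was higher in CD45- (1.87).

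Of 10 breakdown and transport genes tested, 5 were higher in CD45+, 2 in CD45- and 3 in neither. The haemoglobin scavenger receptor Cd163 (-3.85), the haem oxygenase Hmox1 (-2.56) and the biliverdin reductase Blvrb (-2.14), all known from macrophages, were higher in CD45+. Hmox1 stood at 281 ± 111 CPM in CD45+ and 58.0 ± 2.85 in CD45-. The transporters Flvcr2 (3.10) and Slc48a1 (2.15) were higher in CD45-. Without the medium tumor sample Cd163 (-3.63) and Flvcr2 (3.17) no longer passed.

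Of 9 iron supply genes tested, Tfrc (1.21) and Abcb10 (1.18) were higher in CD45-, 2 were higher in CD45+, among them Slc25a37 (-1.36), and 5 passed in neither direction, shares near those over all genes. Without the early tumor sample Abcb10 (0.81) no longer passed. Of 7 regulators tested, 3 were higher in CD45+ (Tal1 -3.37, Lmo2 -2.65 and Ldb1 -1.21) and none in CD45-, while Zbtb7a stood at -0.60 (adjusted p = 0.0538). Of 7 membrane genes tested, Aqp1 (2.96) and Sptb (2.35) were higher in CD45- and Epb41 (-0.89) in CD45+, and 4 passed in neither direction. Aqp1 (3.85) and Epb41 (-0.78) no longer passed without the medium tumor sample, nor did Epb41 (-0.52) without TMM scaling. Of 9 late cytosol genes tested, 4 were higher in CD45-, led by Car2 (5.72) and Bpgm (3.05), and 3 in CD45+ (Tent5c -3.999, Ube2l6 -1.39 and Tspan33 -1.24). Slc25a37, Epb41, Tent5c and Ube2l6, all far higher in the haemoglobin-rich barcodes than in their neighbours, were thus higher in the CD45+ sort, where no haemoglobin-rich barcode was found. With every deposited barcode Slc25a37 (-0.51), Epb41 (-0.55) and Ube2l6 (-0.73) no longer passed. That setting adds haemoglobin-rich barcodes and many other filtered ones, in both sorts, and the part of each was not tested. Without TMM scaling, 22 of the 51 genes were higher in CD45-, and 71.7% of all calls over all genes were in that direction, against 55.8% with TMM.

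The genes whose level followed haemoglobin most closely over the 24 libraries were named by their Pearson correlation of log2(CPM + 1), among 13562 genes with at least 50 UMIs in the early CD45- libraries. Alas2 was first (r = 0.935), followed by Mia (0.897), Ins2 (0.884), 3300002A11Rik (0.877), Hc (0.869), Cox8b (0.869), Dnah6 (0.868), Clic3 (0.866), Pla2g5 (0.865) and Gm29538 (0.864). The libraries of a group share their tumor sample, sort and depth, so these values describe levels by group and carry no p. Alas2 had 1307 UMIs in the haemoglobin-rich barcodes, whereas the other 9 genes had 0 or 1 there.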

How the data were processed

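The deposited values are UMI counts of each gene in each cell, not normalized. Per the study's methods the authors ran RapMap through bcbio-nextgen against GRCm38 (Ensembl annotation, mm10 in the submitters' processing notes) and called cells against empty droplets. Removal of ambient RNA and of doublets is described there, but not whether it came before deposit. The library annotation deposited by the authors (unit: other) gave run, sort and stage of each of 20811 barcodes. Filters (500 UMIs, 500 genes, 20% mitochondrial UMIs) left 17894 cells. Scrublet (expected rate 6%, 20 principal components, libraries of at least 100 cells) removed 113 of 17786 (0.635%), which left 17781. Cells were clustered with scanpy 1.11.5 and Leiden (2000 variable genes, 40 components, 20 neighbours, resolution 1), and 32 clusters were named from at least 3 markers, of which 8 stayed unnamed. Globin genes and genes of the erythroid and haem lists were left out of the clustering, apart from those that mark other classes. Mitochondrial and sex-linked genes were left out too. Levels by stage come from sums of counts, with exact Poisson or binomial 95% intervals.

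For the sort contrast, counts were summed per tumor sample and sort and tested with edgeR 4.0.16 (R 4.3.3, TMM, filterByExpr, quasi-likelihood, tumor sample as a block, adjusted p under 0.05). Both sorts of a stage came from the same dissociated sample, and the pairs' deviations correlated at 0.384, 0.280 and 0.302. On simulated data with 18708 genes, 100 of 100 genes changed 4-fold and 100 of 100 changed 16-fold were recovered, with 6 false calls. The simulated counts were independent, with the same dispersion for every gene and no differences between tumor samples. These rates therefore check the fit and do not carry over to the real data. Gene symbols matched 50150 identifiers. Named genes were the 5 members, up to 3 per direction and list with the largest change past the threshold, the 2 most abundant members otherwise, Alas1, the 10 most correlated genes and the 10 with the largest ratio in haemoglobin-rich barcodes. Others named (Apex2, the mitochondrial genes, and the counts of list genes within haemoglobin-rich barcodes) were chosen after their values were seen. Members and lists were chosen with earlier results of these data known. Filters, scaling, thresholds, depth, class settings and left-out libraries were varied. Some items of the design and of the gene lists are not reported here.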

Additional observations from a re-analysis of the deposited data

Results flagged for a closer look

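In 16 of 66 sets of 4 libraries, 1 library lay further from the others than Dixon's 95% limit allows. The limit assumes normally distributed values, and a library with UMIs passes it by construction when all others are at 0. Sets with equal values in all libraries are counted in the 66 but could not be flagged. The count is therefore a description and has no chance rate to compare with. The sets shared libraries and genes. Library 2 of the late CD45- sort was highest in 7 of them: among deposited barcodes it held 43.6 CPM of haemoglobin (next 2.55), with Hba-a1 at 21.4, Hba-a2 at 15.5, Hbb-bs at 4.68, Hbb-bt at 1.97 and Alas2 at 0.246 (a single UMI), and among filtered cells it held 47.0 (next 2.78). In the late CD45- sort 2 barcodes held 170 of the 185 haemoglobin UMIs.

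Library 2 of the late CD45+ sort, with 91 barcodes, held 7.57 CPM of haemoglobin in both the deposited and the filtered set, a share of 1.10% of cells with a haemoglobin UMI in both, a low level of 0.0220 UMIs per cell, and Hba-a1 and Hba-a2 at 3.78 each. These values rest on 2 UMIs of 1 cell. Library 3 of that sort was the only one with Hbb-bs, at 0.409 from 1 UMI. Library 1 of the medium CD45- sort held 251 CPM of haemoglobin among filtered cells (next 29.4), of which 293 of 294 UMIs lay in 1 haemoglobin-rich barcode.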

How the results depend on the processing

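Of the recomputed main values, 105 were labelled as unchanged and 12 as moved. For levels and shares by sort and stage, unchanged meant a shift below the SD of the 4 libraries. That SD exceeded the level itself in the filtered medium (118 against 55.6 CPM) and late (22.9 against 17.5) CD45- sorts. Large relative shifts there, such as the lowest values with 1 library left out, were thus counted as unchanged. With every deposited cell, haemoglobin rose to 61900 CPM in the early and 3021 in the medium CD45- sort, 163 in place of 13 early barcodes were haemoglobin-rich, and the richest 1% of cells held 39.8% in place of 95.4% of haemoglobin. Leaving out haemoglobin-rich cells, an alternative chosen after seeing the data, gave 340 in the early CD45- sort, and the mean of each cell's own share gave 2687. The early CD45- share of positive cells was 22.9% after thinning and 21.2% at a minimum of 2 UMIs, the class range after thinning was 17.8% to 32.0%, and 5 filtered barcodes were haemoglobin-rich at 50%. Without TMM, 22 in place of 13 list genes were higher in CD45-, and Hmox2 (0.048), Eif2ak1 (0.25) and Mkrn1 (0.16) changed sign, as did Mkrn1 (0.11) with every deposited cell. None of these 3 had passed the threshold. The median of all genes was then 0.40, against 0.04.

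Leaving out 1 library at a time gave 5060 to 6418 CPM in the early CD45- sort, 13.2 to 86.2 in the medium (lowest without library 1), 1.17 to 22.8 in the late (lowest without library 2) and 13.9 to 34.9 in the early CD45+ sort (lowest without library 4). Shares of positive CD45- cells ran from 38.3% to 43.9%, 1.84% to 5.75% and 0.258% to 0.506%, and the share of the richest 1% from 95.1% to 95.8%. Leaving out 1 tumor sample gave 13 to 14 list genes higher in CD45- and 10 to 14 higher in CD45+, and 3931 to 4086 and 3012 to 3124 of all genes. Among named list genes, calls were lost for Alas1 without the medium (-0.91) or the late sample (-1.19), for Flvcr2 (3.17), Cd163 (-3.63), Aqp1 (3.85) and Epb41 (-0.78) without the medium sample and for Abcb10 (0.81) without the early sample. Without the replicate block 4398 and 3470 genes were called in place of 4744 and 3759, Aqp1 (2.65) and Ube2l6 (-1.58) did not pass, the log2 differences of Hbb-bs and Hbb-bt were 7.04 and 7.45, and no named gene changed direction. DESeq2 called 4395 and 3719 genes, and of the 41 named genes 2 no longer passed there and 1 newly did. With every gene of at least 1 count, 3 of the 41 no longer passed. The late CD45- values rest on 185 haemoglobin UMIs in 2603 barcodes.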

Other observations

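The share of alpha genes in barcodes at 1% haemoglobin or more outside the early sample differed between libraries. It was closer to the early share where most such UMIs lay than in 3 barcodes with few. In the early CD45- libraries, alpha genes made up 50.8%, 51.3%, 53.5% and 52.6% of haemoglobin in these barcodes. In libraries 3 and 4 of the medium CD45- sort, with 3 and 2 haemoglobin-rich barcodes, the share was 46.4% and 51.2%, the former below every early library. In the haemoglobin-rich barcode of library 1 of that sort it was 70.0% of 293 UMIs, and in 2 barcodes of library 2 of the late CD45- sort it was 85.9% of 170 UMIs.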
